A study of Bos taurus with 6 samples.

Results

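Solute carrier (SLC) genes encode membrane proteins that move ions, nutrients, osmolytes and metabolites into and out of the cell and its organelles. They were taken from the gene symbols deposited with the arrays, as symbols that begin with SLC and name a numbered carrier family, with the nucleotide sugar group limited to SLC35A. By this rule 185 genes were found among the 11636 genes with a named probeset, and they fall into 41 families and 17 substrate classes. The rule leaves out SLC2A1, SLC2A3, SLC20A1, SLC20A2 and SLC26A2, the last of which had no named probeset. Membership was set by symbol and used no measured value. Each gene was read from its brightest probeset, picked by the mean log2 value over the 6 arrays. One probeset was available for 127 genes, and 58 genes had several.

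RNA came from normal articular cartilage of the femoral condyles of 2 skeletally mature cattle, aged 14 to 30 months. The superficial zone (SZ) was the upper 10% of 50 µm sections cut parallel to the joint surface, the middle zone (MZ) the middle 40% and the deep zone (DZ) the lower 30%. About 200 µm was thrown away between neighbouring zones. All groups share the same tissue, the same lack of treatment and amplification from 5 ng of RNA, and each zone was measured once per animal (n = 2 arrays a zone, 6 arrays). The zones were set by depth alone, so each sample holds whatever cells lay at that depth, and in such bulk samples fewer cells of a type cannot be told apart from less RNA per cell.

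Chondrocytes live in a tissue without blood vessels, in a charged matrix that holds sodium and water at high concentration, and they meet their substrates by diffusion. Their carriers supply amino acids for collagen and proteoglycan synthesis, sulphate and nucleotide sugars for glycosaminoglycan chains, and organic osmolytes that balance the osmotic pressure of the matrix. They also export lactate and protons from glycolysis. Some carriers work as pairs, such as the light chain SLC7A5 with the heavy chain SLC3A2, and some work only inside mitochondria, as the SLC25 family does.

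Values are log2 expression as normalised by the authors, and all differences are the log2 value of the zone named first minus that of the other. A gene was called at an adjusted p under 0.05 in limma, adjusted by the Benjamini-Hochberg method over all 24016 probesets tested. Levels were not compared between genes, since probesets differ in brightness. The array medians were 4.42 to 4.46 and the lower quartiles 2.71 to 2.87, and pairs of arrays correlated across probesets with r of 0.916 to 0.972. Of the 185 genes, 132 read above the lower quartile of every array, 27 read under it on all 6 arrays and the other 26 on some, so the carriers called below come from the brighter part of the list.

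Some measurements moved with the DZ and are given before the results that touch them. Of 9 measured cartilage genes 1 was called higher and 1 lower in SZ than in DZ, and 7 were not called. The median SZ minus DZ of the 9 was -0.32. COL9A2 was called lower (-1.74, limma adjusted p = 0.0452), and COL9A1 (-1.66) and COL11A2 (-1.395) read lower without a call. HAPLN1 differed by 0.10, and COL2A1 lay between 13.69 and 14.15 on the 6 arrays. The lubricin gene PRG4, called higher, was 13.37 and 13.53 in SZ, 9.63 and 12.11 in MZ and 4.28 and 6.82 in DZ. Some markers of other cells were higher in DZ: 3 of 5 measured osteoblast markers, 2 of 5 osteoclast, 3 of 10 endothelial and 5 of 10 leukocyte markers were called lower in SZ than in DZ. Over all probesets 1.72% were called lower. Other members of these lists read higher in SZ than in DZ without a call, such as CD14 (1.06), SOST (0.59) and ENG (0.33). The summed level of the osteoblast list (log2 of the sum) was 9.80 and 7.18 in SZ, 7.04 and 7.74 in MZ and 13.83 and 14.33 in DZ. For the osteoclast list it was 8.26 and 8.47 in SZ, 8.31 and 8.54 in MZ and 11.84 and 11.27 in DZ. Both lists were highest in the DZ arrays, and SZ replicate 1 stood above both MZ arrays for the osteoblast list. Single markers also differed between SZ and MZ without passing (SZ minus MZ). In the osteoblast list COL1A2 stood at 3.71 and COL1A1 at 1.95, but IBSP at -1.15. In the adipocyte list FABP4 stood at 1.82 but LPL at -1.25, and in the synovial list DPT at 1.59 but CADM1 at -1.89. The osteoclast gene ACP5 stood at 1.69 and the leukocyte gene LYZ at -1.11. For the endothelial list the sum was 7.71 and 7.82 in SZ, 7.13 and 7.47 in MZ and 8.60 and 10.19 in DZ. For the leukocyte list it was 7.22 and 7.11 in SZ, 6.84 and 6.93 in MZ and 9.55 and 9.43 in DZ. The remaining lists of other cells had 0 of 5 red cell, 1 of 6 adipocyte, 0 of 8 muscle and 2 of 5 synovial genes lower in SZ than in DZ. The adipocyte sum was 7.51 and 7.04 in SZ, 7.45 and 6.31 in MZ and 8.61 and 10.04 in DZ, and the synovial sum 9.48 and 8.35 in SZ, 9.24 and 8.56 in MZ and 10.74 and 10.64 in DZ. The red cell sums (5.32 to 5.76) and muscle sums (7.26 to 8.14) overlapped between SZ and DZ. No marker lies at 0 on this scale, but in SZ and MZ the endothelial gene KDR (1.77 to 2.28) and the leukocyte gene PTPRC (2.12 to 2.24) lay under the lower quartile of the arrays. Other members of the same lists lay above it on every array. In SZ and MZ the endothelial gene ENG was 5.88 to 6.96 and the leukocyte gene CD14 was 4.84 to 5.81. The part of these cells in the DZ differences was not tested. The DZ arrays also carry another leading code in their description than the SZ and MZ arrays, and whatever that code stands for cannot be told apart from the zone. The median of 27 bacterial control probesets was 5.88 and 6.24 in SZ, 4.90 and 4.17 in MZ and 3.61 and 3.56 in DZ, and the cyclophilin probesets differed by 2.24 and 1.69 (3′ minus 5′) in SZ, 2.23 and 2.66 in MZ and 3.30 and 2.54 in DZ. Their part was not tested either.

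The contrast of the surface with the deep tissue held the clearest carrier differences. In limma 7 genes were called lower and 0 higher in SZ than in DZ, which is 3.78% of the 185 genes. Over all probesets 2.75% were called, 1.72% lower and 1.03% higher, and over the 11636 named genes 3.24% were called, 2.25% lower, so the share among the carriers is near the background. The 7 genes carry calcium (SLC8A3), choline (SLC44A2), glycine (SLC6A9), large neutral amino acids (SLC7A5), myo-inositol (SLC5A3) and mitochondrial ornithine (SLC25A15), and SLC22A17 is a receptor for the iron-binding protein lipocalin-2. In both animals each of the 7 read lowest in SZ, intermediate in MZ and highest in DZ. Among the 185 genes 24 followed that order in both animals (12.97%), against 6% of all probesets and 7.97% of named genes. The opposite order was followed by 16 (8.65%), against 8.03% of all probesets and 7.13% of named genes.

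**Figure D1:**
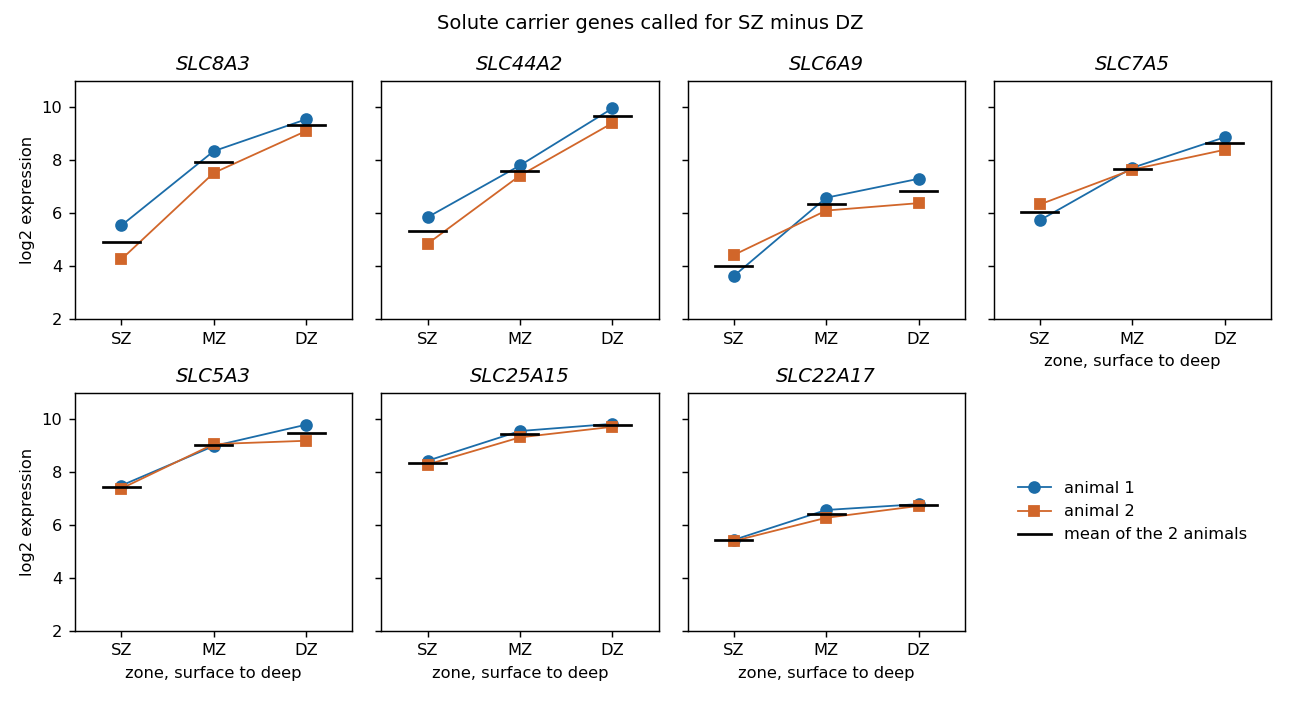
Log2 expression (vertical axis) of the 7 solute carrier genes called lower in SZ than in DZ, by zone from surface to deep, with 1 line per animal and a black bar for the mean of the 2 animals. Both animals step upward from SZ through MZ to DZ in each panel, and SLC8A3 and SLC44A2 span the widest range.

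SLC8A3, the sodium/calcium exchanger NCX3 that pushes calcium out of the cell in exchange for sodium, had the largest difference of any carrier. It read 5.54 and 4.26 in SZ, 8.35 and 7.53 in MZ and 9.55 and 9.11 in DZ. All SZ arrays lay below all MZ arrays, and these below all DZ arrays. Its mean was 4.90 ± 0.91 over the SZ arrays, 7.94 ± 0.58 over the MZ arrays and 9.33 ± 0.31 over the DZ arrays (SD, n = 2 each). SZ minus DZ was -4.43 (SE 0.28, limma adjusted p = 0.00395), a 21.6-fold lower signal in SZ, and the call held with any one array left out. The middle zone had reached 68.5% of the way from the SZ to the DZ mean. SZ minus MZ was -3.04, just short of the threshold (limma adjusted p = 0.0542). This contrast passed with the SZ and MZ arrays alone (limma adjusted p = 0.0441). Leaving out either DZ array gives that same fit, so it is 1 check. The contrast did not pass with any one SZ or MZ array left out, with the difference between -3.36 and -2.71. Without the animal block it did not pass either (limma adjusted p = 0.184).

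SLC44A2, a choline transporter-like protein also known as a carrier of a neutrophil surface antigen in humans, spread the difference more evenly over depth. It read 5.85 and 4.85 in SZ, 7.81 and 7.43 in MZ and 9.97 and 9.41 in DZ. No array of one zone overlapped another zone. SZ minus DZ was -4.34 (SE 0.26, limma adjusted p = 0.00395), a 20.2-fold lower signal in SZ, with 52.3% of the difference reached at MZ, and the call held with any one array left out. It was also the 1 carrier called for MZ minus DZ, at -2.07 (SE 0.26, limma adjusted p = 0.0368). Without DZ replicate 1, DZ replicate 2, MZ replicate 1 or MZ replicate 2 that second call did not pass, with limma adjusted p between 0.143 and 0.237. On its dimmer probeset SLC44A2 was 4.27 and 4.21 in SZ, 5.24 and 4.67 in MZ and 6.33 and 6.02 in DZ, with SZ minus DZ at -1.93 (limma adjusted p = 0.0175). MZ minus DZ did not pass on that probeset (-1.22, limma adjusted p = 0.141), nor on the brighter one without the animal block (limma adjusted p = 0.185).

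SLC7A5, known as LAT1, exchanges large neutral amino acids such as leucine across the plasma membrane and needs its partner SLC3A2 to reach it. SLC7A5 read 5.74 and 6.34 in SZ, 7.72 and 7.65 in MZ and 8.88 and 8.40 in DZ. The 3 zones did not overlap. SZ minus DZ was -2.60 (SE 0.31, limma adjusted p = 0.0151), a 6.06-fold lower signal in SZ. The call was lost without SZ replicate 1 (limma adjusted p = 0.0562) and without DZ replicate 1 (limma adjusted p = 0.0762), with the difference at -2.17 and -2.23. SLC3A2 read 6.33 and 5.53 in SZ, 6.54 and 6.34 in MZ and 6.77 and 6.85 in DZ. The SZ and DZ arrays of this partner do not overlap, but its SZ minus DZ of -0.88 did not pass the test (limma adjusted p = 0.19).

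SLC6A9, the glycine transporter GlyT1, carries the most abundant residue of collagen. It read 3.63 and 4.43 in SZ, 6.59 and 6.10 in MZ and 7.31 and 6.38 in DZ. The MZ and DZ arrays overlap and the SZ arrays stand apart. SZ minus DZ was -2.82 (SE 0.42, limma adjusted p = 0.0291). No fold is given, as the SZ arrays lie near the lower quartile, and the second deposited table put the difference at -1.05 without a call. The call was also lost without SZ replicate 1 (-2.07), DZ replicate 1 (-2.28) or DZ replicate 2 (-3.36).

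SLC5A3, which imports the osmolyte myo-inositol with sodium, read 7.49 and 7.38 in SZ, 8.98 and 9.06 in MZ and 9.79 and 9.18 in DZ. SZ lay apart from the deeper zones, and the step from SZ to MZ made up 77.3% of the difference between the SZ and DZ means. SZ minus DZ was -2.05 (SE 0.26, limma adjusted p = 0.0182), a 4.15-fold lower signal in SZ. The call was lost without SZ replicate 1, DZ replicate 1 or DZ replicate 2, with limma adjusted p between 0.0537 and 0.0979.

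SLC25A15, which carries ornithine into mitochondria for the urea cycle, read 8.43 and 8.28 in SZ, 9.55 and 9.31 in MZ and 9.82 and 9.71 in DZ. The replicate arrays were close and the zones did not overlap. SZ minus DZ was -1.41 (SE 0.22, limma adjusted p = 0.0338), a 2.66-fold lower signal in SZ. SLC22A17 read 5.44 and 5.39 in SZ, 6.57 and 6.27 in MZ and 6.79 and 6.72 in DZ. Its SZ minus DZ was -1.34 (SE 0.23, limma adjusted p = 0.0415), a 2.53-fold lower signal in SZ. For both genes the difference stayed between -1.25 and -1.57 in every alternative on the same probeset, while the call was lost with any one array left out (limma adjusted p 0.0684 to 0.153 for SLC25A15 and 0.0784 to 0.179 for SLC22A17). SLC22A17 was called in 2 of 11 alternatives, and also lost its call without the animal block (limma adjusted p = 0.0564), with quantile normalisation (0.0509) and with an intensity trend (0.0506). A dimmer SLC25A15 probeset read -0.42 for SZ minus DZ and did not pass (limma adjusted p = 0.755).

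The 28 amino acid carriers included the 2 called genes SLC6A9 and SLC7A5. SZ minus DZ ranged from -2.82 to 0.98 with a median of -0.18, beside a median of 0.06 over all probesets and -0.006 over named genes. In the second deposited table the median was -0.09 for the amino acid carriers and -0.07 for named genes. Over all 185 carriers, both SZ arrays lay above both DZ arrays in 58 (31.4%) and below in 44 (23.8%). The background was 26.3% above and 19.1% below over all probesets, and 22.7% above and 23.3% below over named genes. Among the 28 amino acid carriers the counts were 8 above and 9 below. SLC1A5, the glutamine carrier ASCT2, read 9.06 and 8.64 in SZ, 9.79 and 9.70 in MZ and 10.07 and 10.25 in DZ, with SZ minus DZ at -1.31 just outside the threshold (limma adjusted p = 0.059). SLC7A1, the cationic amino acid carrier CAT1, stood at -1.40 (limma adjusted p = 0.072) and was 5.75 and 6.40 in SZ against 7.61 and 7.35 in DZ. The taurine importer SLC6A6, a partner of SLC5A3 among osmolyte carriers, read 3.15 and 3.40 in SZ, 3.64 and 3.95 in MZ and 4.90 and 4.48 in DZ, and its -1.41 did not pass either (limma adjusted p = 0.0598). All 3 read in the direction of the called genes without passing.

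Other amino acid carriers read higher in SZ or differed by less. SLC38A1, a sodium-coupled glutamine importer, read 8.45 and 8.68 in SZ, 7.64 and 8.18 in MZ and 7.41 and 7.76 in DZ, and its SZ minus DZ of 0.98 did not pass (limma adjusted p = 0.0955). SLC43A2, a facilitated carrier of large neutral amino acids, was 5.67 and 6.56 in SZ, 4.34 and 5.56 in MZ and 5.10 and 5.43 in DZ. SLC38A2, a neutral amino acid importer, read 10.03 and 10.17 in SZ, 10.84 and 10.33 in MZ and 10.69 and 10.49 in DZ, a difference of -0.49 for SZ minus DZ with an unadjusted 95% interval of -1.11 to 0.14. SLC1A4, the neutral amino acid exchanger ASCT1, was -0.40 (interval -1.12 to 0.33).

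**Figure D2:**
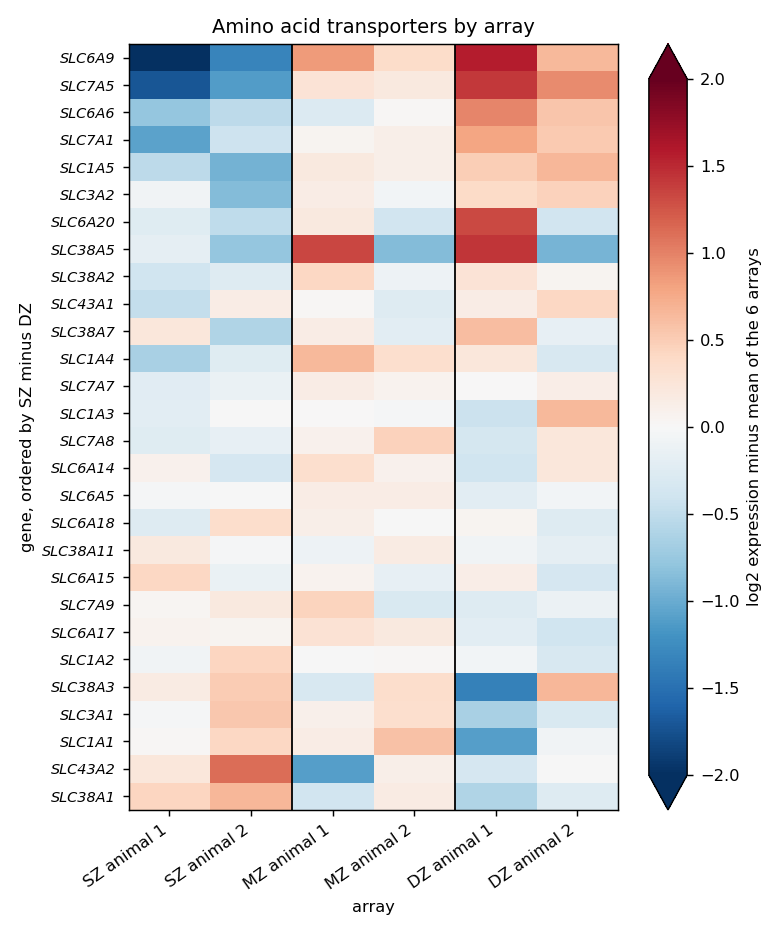
Log2 expression of the 28 amino acid carriers on each of the 6 arrays, shown as the deviation from each gene's own mean over the arrays and ordered by SZ minus DZ. SLC6A9 and SLC7A5 head the list, with both SZ arrays below the gene's mean, and SLC38A1, with both SZ arrays above it, lies at the other end.

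Calcium and other metal carriers were compared next. Of the 4 calcium carriers SLC8A3 alone was called, and the cardiac-type exchanger SLC8A1 read -0.18 for SZ minus DZ (interval -0.97 to 0.61) near the array floor. The 24 metal carriers had 0 called in SZ minus DZ in limma, and 1 higher and 1 lower in the second table. Their median was 0.15, with a range of -1.29 to 1.07, and -0.03 in the second table. SLC31A1, the high-affinity copper importer, read 7.91 and 6.96 in SZ, 8.51 and 7.55 in MZ and 9.01 and 8.44 in DZ, and both animals stepped upward with depth. Its -1.29 missed the threshold (limma adjusted p = 0.0538), though the second table called it. SLC39A14, a zinc and iron importer, stood at -1.07 (limma adjusted p = 0.124), and SLC40A1, the iron exporter ferroportin, at 1.07 (limma adjusted p = 0.233) with 7.67 and 7.91 in SZ against 6.36 and 7.08 in DZ. SLC30A1 (zinc export) and SLC11A2 (iron import) differed by 0.28 and 0.05, and SLC39A8, a zinc importer linked to cartilage breakdown in mice, by 0.27 (interval -0.87 to 1.41). A dimmer SLC11A2 probeset read 2.09 and 3.20 in SZ against 4.76 and 3.48 in DZ, at -1.48 without passing (limma adjusted p = 0.23). The macrophage metal carrier SLC11A1 read 3.44 and 3.83 in SZ, 3.16 and 3.67 in MZ and 4.45 and 4.34 in DZ and did not pass.

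Carriers of acid, lactate and ions held no called gene, and the interval of each is wide. Of the 12 bicarbonate and proton carriers 0 were called for SZ minus DZ, with a median of 0.06, against -0.26 in the second table. SLC4A7, a sodium bicarbonate importer, differed by -0.52 (interval -1.09 to 0.04), and SLC4A2, an anion exchanger, by 0.20 (interval -0.41 to 0.81). The proton-linked lactate exporter SLC16A3 read 9.24 and 8.34 in SZ, 9.85 and 9.14 in MZ and 9.38 and 9.14 in DZ, with SZ minus DZ at -0.47 (interval -1.10 to 0.16). SLC16A1, a lactate carrier of wide expression, differed by -0.48 (interval -1.46 to 0.50). SLC12A4, a potassium-chloride exporter used in cell volume control, read 6.71 and 6.71 in SZ, 8.27 and 7.61 in MZ and 8.14 and 7.84 in DZ. Its SZ minus DZ of -1.28 did not pass (limma adjusted p = 0.0661) and was called in the second table, while the importer SLC12A2 differed by -0.27. SLC13A4, a sodium-sulphate importer, read 4.63 and 4.49 in SZ, 7.49 and 5.74 in MZ and 6.40 and 6.05 in DZ on its brightest probeset. Its other probesets were at 0.12 and -0.47, so the -1.67 of the first rests on that probeset.

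Of the 5 nucleotide sugar carriers of the Golgi, which feed glycan synthesis, all 5 read lower in SZ than in DZ and 0 passed the test. Over all probesets 44.35% read lower, and over named genes 50.51%. SLC35A2 (UDP-galactose) differed by -1.17 (limma adjusted p = 0.163) with 5.10 and 5.63 in SZ against 6.91 and 6.15 in DZ. SLC35A1 (CMP-sialic acid) differed by -0.27, SLC35A3 (UDP-N-acetylglucosamine) by -0.06, SLC35A5 by -0.06 and SLC35A4 by -1.12. The last read 3.42 and 4.41 in SZ, 5.64 and 5.15 in MZ and 5.10 and 4.98 in DZ, so the highest zone was MZ. The dimmer probeset of SLC35A2 read 0.16 and the 3 dimmer probesets of SLC35A5 read 0.16, 0.36 and 0.89, all the other way, and that of SLC35A4 read -0.22.

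The 32 mitochondrial carriers held 1 called gene, SLC25A15, and a median SZ minus DZ of -0.05, against -0.27 in the second table. The adenine nucleotide exchangers, which swap ATP for ADP across the inner membrane, differed among themselves. SLC25A4 read 7.45 and 7.47 in SZ, 7.87 and 7.59 in MZ and 7.86 and 7.62 in DZ, at -0.29 (interval -0.85 to 0.27). SLC25A6 was at 0.27 (interval -0.44 to 0.98). SLC25A5 read 4.17 and 3.65 in SZ, 4.34 and 3.70 in MZ and 6.59 and 4.05 in DZ, so its -1.41 rests on DZ replicate 1 and did not pass. SLC25A39, needed for mitochondrial glutathione import in mice and human cells, stood at -1.09 (limma adjusted p = 0.0931).

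The remaining classes were the sugar, nucleoside, choline, vitamin, peptide, neurotransmitter, phosphate and organic ion carriers. The nucleoside carrier SLC29A1 read 10.47 and 9.90 in SZ, 9.93 and 10.36 in MZ and 10.97 and 10.53 in DZ, with SZ minus DZ at -0.56 (interval -1.32 to 0.19). SLC29A2 had 5.27 in DZ replicate 1 alone, against 3.04 in the other DZ array. The lysosomal and endosomal histidine and peptide carrier SLC15A4 read 6.74 and 5.82 in SZ, 6.99 and 5.89 in MZ and 8.02 and 6.82 in DZ, at -1.14 (limma adjusted p = 0.0646), with the animals apart in every zone. The choline carrier SLC44A1 differed by -0.30 (interval -0.85 to 0.26), against the -4.34 of SLC44A2. SLC6A2, the noradrenaline importer, stood at 1.10 (limma adjusted p = 0.235) with 6.87 and 3.91 in SZ, 5.31 and 3.999 in MZ and 5.31 and 3.28 in DZ, so the animals differed by more than the zones did. Several others did not pass either. The folate importer SLC19A1 differed by 0.44 (interval -0.25 to 1.13) and the vesicular monoamine carrier SLC18A2 by 0.37 (interval -0.33 to 1.08). SLC46A3, a lysosomal carrier, stood at -0.997 (limma adjusted p = 0.123), and the phosphate carriers SLC34A1 and SLC34A2 at 0.27 and 0.43, all near the array floor. The 8 vitamin and haem carriers had a median of 0.31, against 0.09 in the second table, with 0 called.

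**Figure D3:**
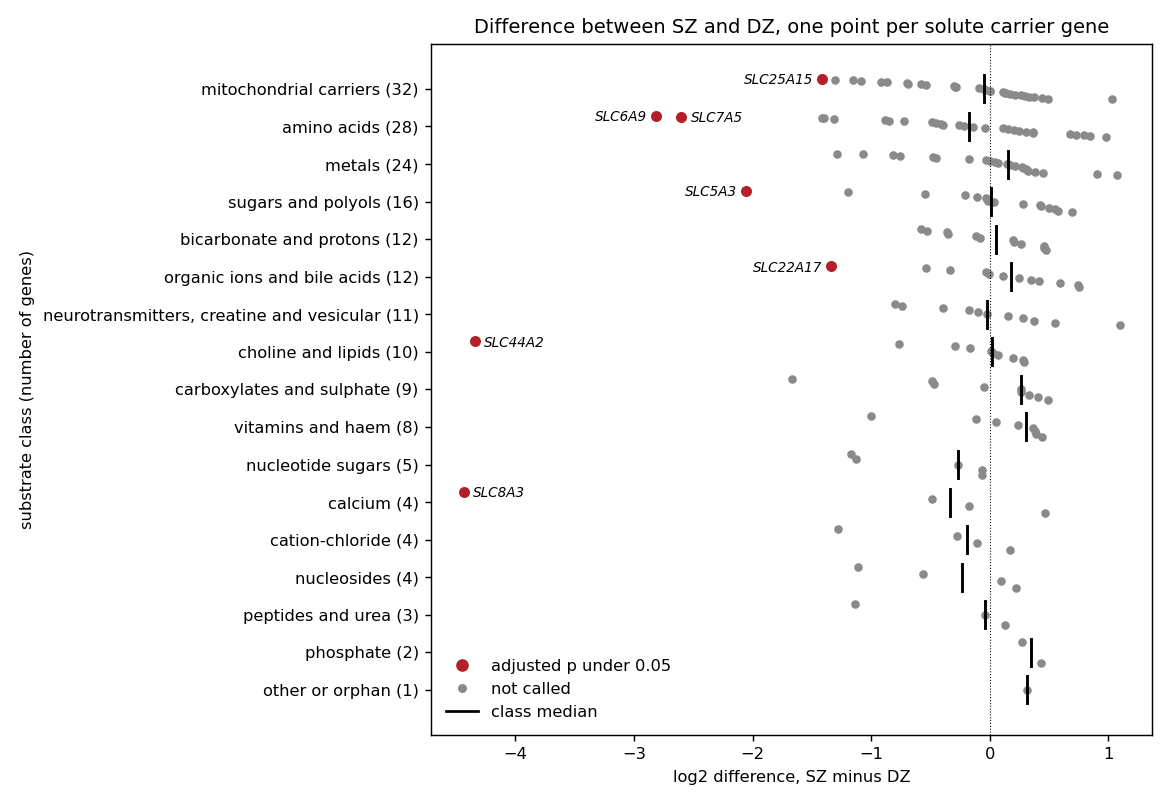
SZ minus DZ on the log2 scale for each of the 185 genes, 1 point per gene, by substrate class with the class median as a bar and the called genes in red. The 7 red points lie below 0 in 6 classes, and the class medians lie between -0.33 and 0.35.

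**Figure D4:**
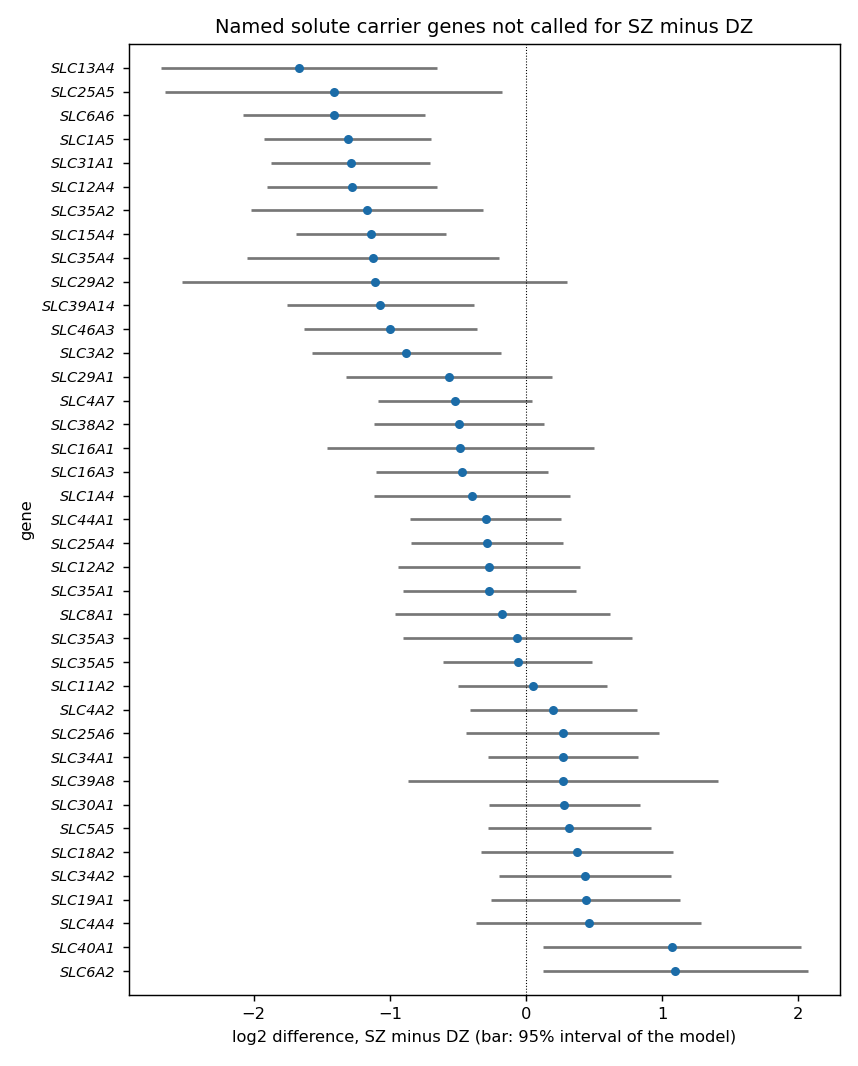
SZ minus DZ on the log2 scale with its unadjusted 95% interval for named solute carrier genes that were not called. The median half-width over all 185 genes was 0.63 without adjustment, but a call needs an adjusted p under 0.05. The smallest called difference was the -1.34 of SLC22A17, and some larger ones, such as SLC6A6 at -1.41, were not called.

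SZ minus MZ compares the zones whose arrays share a leading code. No carrier was called in limma (0 of 185, beside 10 of 24016 probesets, 0.0416%), and 21 had an unadjusted p under 0.05 (11.4%, against 8.84% over all probesets). The second table called 3, SLC8A3, SLC44A2 and SLC7A5, each lower in SZ, beside 57 lower and 78 higher of all 24016 probesets. Both SZ arrays lay below both MZ arrays in 47 genes (25.4%, against 17.5% over all probesets and 19.3% over named genes) and above in 25 (13.5%, against 17.7% and 17%). Differences over 1 were seen for 12 genes (6.49%, against 4.51% over all probesets). They were negative for SLC8A3 (-3.04), SLC6A9 (-2.32), SLC44A2 (-2.27), SLC13A4 (-2.05), SLC7A5 (-1.65), SLC5A3 (-1.59), SLC35A4, SLC25A33, SLC12A4, SLC25A15 and SLC22A17, and positive for SLC43A2 (1.16). All 7 genes called for SZ minus DZ are among the 12, and they share the SZ arrays with that contrast.

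MZ minus DZ had 1 called gene, SLC44A2 (0.541% of the carriers, against 0.704% of all probesets called in either direction and 0.612% called lower). Both MZ arrays lay above both DZ arrays in 49 carriers (26.5%, against 22.7% over all probesets) and below in 31 (16.8%, against 15.2%). Carriers that differed by over 1 were SLC44A2, SLC8A3 (-1.39, limma adjusted p = 0.141) and SLC25A5, or 1.62% of the 185 genes, against 5.23% of all probesets. The F test over the 3 zones called 4 genes, SLC8A3, SLC44A2, SLC7A5 and SLC5A3 (1.84% of all probesets were called).

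Other transport genes were read for comparison. There were 59 other membrane transport genes (ABC transporters, ion pumps, aquaporins, and SLCO and further SLC35 carriers outside the rule). Limma called 0 of them in each contrast, beside 2.75% of all probesets for SZ minus DZ. For SZ minus DZ 14 had an unadjusted p under 0.05 (23.7%, against 17.6% of all probesets and 23.2% of the 185 carriers). The second table called 1 higher and 1 lower in SZ than in DZ, beside 503 higher and 759 lower of all 24016 probesets. Among the 59 the largest differences were those of the water channel AQP1, at -2.05 (limma adjusted p = 0.132), and the sodium pump subunit ATP1B3, at -1.53 (limma adjusted p = 0.0835). Of the 4 symbols with a named probeset that the rule leaves out, 0 were called. For SZ minus DZ 2 of them had an unadjusted p under 0.05 (50%, against 17.6% of all probesets). The glucose carrier SLC2A3 came closest, at 2.35 (limma adjusted p = 0.0555), the opposite direction to the 7 called carriers.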

How the data were processed

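The authors deposited 1 log2 expression value per probeset and array, normalised between arrays. RMA is named in the submitters' processing notes, with no version, and the values themselves show the log2 scale. A second deposited log2 matrix, whose name carries dCHIP, was the alternative and the source of gene symbols. Its settings and the genome build are not given in the sources used here, so no coordinates or sequences are printed. After removal of 112 control probesets, 24016 remained. The fit used limma 3.58.1 (R 4.3.3), with zone and animal in the model (residual degrees of freedom 2), two-sided, adjusted by Benjamini-Hochberg over 24016 probesets. The procedure was tested on simulated data. Per the labels, arrays of one number share an animal, and the animal differences correlated across probesets between zones with r of 0.259, 0.216 and 0.346 (SZ with MZ, SZ with DZ, MZ with DZ). Intervals are unadjusted, and the number of arrays limits precision. Folds are given where the lower zone reads more than 1 log2 unit above the lower quartile. Of the 185 symbols, 183 matched a RefSeq symbol (ARS-UCD2.0) and 2 a synonym. The genes and lists were chosen with earlier results of these data known. Genes were named if called, if brightest or most different in their class, or if among 39 fixed genes, of which 7 (SLC7A11, SLC16A7, SLC23A2, SLC41A1, SLC26A1, SLC26A6 and SLC14A1) had no named probeset. SLC7A1, SLC38A1, SLC43A2, SLC25A39, SLC25A33 and SLC11A1 were named after their values were seen, as were the SZ minus MZ values of SLC8A3 and SLC44A2 and all genes outside the 185 except the markers. Alternatives were the second table, an intensity trend with robust prior, no block, quantile normalisation, a filter on dim probesets, the second probeset, each array left out and, for SZ minus MZ, the SZ and MZ arrays alone. The last was added for single genes after seeing the data. Some genes that this naming rule takes are not reported here.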

Additional observations from a re-analysis of the deposited data

How the results depend on the processing

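With the second (dCHIP) table the calls numbered 3 for SZ minus MZ, 14 for SZ minus DZ, 2 for MZ minus DZ and 10 in the F test, against 0, 7, 1 and 4, and 6 of the 7 SZ minus DZ genes were shared. Of those 14, 12 were lower and 2 higher in SZ than in DZ. Over all 24016 probesets that table called 78 higher and 57 lower for SZ minus MZ, against 6 and 4 in the main fit. For SZ minus DZ it called 503 higher and 759 lower, against 247 and 413. For MZ minus DZ the counts were 45 and 214, against 22 and 147. An intensity trend with robust prior gave 2, 8, 1 and 6, and a filter on dim probesets 2, 10, 1 and 5. Quantile normalisation gave 0, 7, 1 and 4, and the second probeset 0, 6, 0 and 4. Without the replicate block that pairs arrays by animal the calls were 0, 6, 0 and 3. The SZ and MZ arrays alone called 1 gene for SZ minus MZ, and leaving out either DZ array gives that same fit. Leaving out 1 array gave 0 to 1, 2 to 6, 0 to 1 and 2 to 4 calls. For SZ minus DZ the count was 2 without DZ replicate 1 or SZ replicate 1, and 3 without DZ replicate 2. The cause was not tested.

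Among named genes, 521 values kept direction and side of the threshold, 31 lost the call, 17 gained it and 17 reversed, all of these uncalled. Many of the 521 belong to uncalled genes that stayed uncalled. The direction could not change without the block, with an intensity trend or with the dim filter, as these leave the difference itself unaltered. The same holds without an array of the zone outside the contrast and for the SZ and MZ arrays alone, so the 521 do not measure stability. Reversed under the second table were SLC4A2 at -0.10 and SLC34A2 at -0.28 (SZ minus DZ) and SLC8A1 at 0.10 (MZ minus DZ). Reversed with the second probeset were SLC11A2 at -0.19 (MZ minus DZ), SLC13A4 at 0.40 and SLC16A3 at 0.0871 (SZ minus MZ), and SLC35A2 and SLC35A5 at 0.16 (SZ minus DZ). With 1 array left out, SZ minus DZ ranged from -0.0491 to 0.452 for SLC4A2, -0.565 to 0.018 for SLC12A2, -2.25 to 0.0243 for SLC29A2, -0.56 to 0.0217 for SLC35A1 and -0.156 to 0.0353 for SLC35A5. MZ minus DZ ranged from -0.797 to 0.172 for SLC8A1, -0.0052 to 0.168 for SLC11A2 and -1.33 to 0.0785 for SLC16A1, and SZ minus MZ from -1.01 to 0.0949 for SLC35A3. The array whose loss reversed the sign was DZ replicate 1, except SZ replicate 1 for SLC4A2, DZ replicate 2 for SLC35A1 and MZ replicate 2 for SLC35A3. With 2 arrays a zone and no detection calls, the change of genes near the array floor is not resolved.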
